A study of Mus musculus with 2 samples.

Results

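The *Ms4a* genes code for membrane proteins with 4 membrane-spanning segments, and 8 of them (*Ms4a4a*, *Ms4a4b*, *Ms4a4c*, *Ms4a6b*, *Ms4a6c*, *Ms4a6d*, *Ms4a7* and *Ms4a8a*) were followed in adipose tissue macrophages (ATMs). They were taken by symbol from the 31053 genes of the deposited tables, which hold 19 *Ms4a* symbols in all. Droplet-based scRNA-seq had been run on CD45+Lin-Ly6Clow/-F4/80+ cells sorted from the digested epididymal fat of male C57/BL6 mice, where the lineage gate removed T cells, B cells, eosinophils and neutrophils. Cells of 3 mice kept on control diet (CD) were pooled into 1 library and cells of 3 mice given a high fat diet (HFD) overnight into another. The labels name no modified allele. Cells cannot be traced to a mouse, so each diet is 1 sample, no p-value compares the diets, and all intervals below are 95% intervals for counting error in these 2 libraries. The levels of the 8 genes were compared between the libraries and between cells with a UMI (unique molecular identifier, 1 counted mRNA molecule) of *Timd4*, *Lyve1*, *Ccr2*, *Plac8* or *Trem2*, cells with *Folr2* but no *Lyve1*, and cells with at least 10 UMIs of *Lyz1* (Lyz1 high).

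Most proteins of this family cross the membrane with both ends in the cytoplasm, and several sit in complexes with other receptors and tune their signals. MS4A1 is CD20 of B cells and MS4A2 is the beta chain of the high-affinity IgE receptor of mast cells. MS4A4A and MS4A7 are carried by macrophages, MS4A4A having been linked to the lectin receptor dectin-1, and human variants in the MS4A cluster are tied to the amount of soluble TREM2. *Ms4a4b* is best known from T cells, where its product associates with GITR, and *Ms4a4c* and the *Ms4a6* genes are known from myeloid cells and as genes that respond to interferon. The marker genes used here to class cells mark resident ATMs (*Timd4*, the phosphatidylserine receptor Tim4, *Lyve1*, a hyaluronan receptor, and *Folr2*, a folate receptor) and cells closer to blood monocytes (*Ccr2*, a chemokine receptor, *Lyz1*, a lysozyme, and *Plac8*).

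All 8 genes lie on chromosome 19 of the mouse (GRCm38), between 11067471 and 11604849, a span of 537 kb. *Ms4a8a* stands at one end, and the other 7 lie within 284 kb. The coding sequences of *Ms4a4b* and *Ms4a4c* were 91.7% identical, as identical bases over the length of the longer sequence. On the same measure *Ms4a6b* and *Ms4a6d* were 80.4% identical, *Ms4a6b* and *Ms4a6c* 75.7% and *Ms4a6c* and *Ms4a6d* 68.4%. *Ms4a7* was no more than 56.7% identical to any other member. A difference in length lowers this measure, and *Ms4a6c* (651 bases) was shorter than *Ms4a6b* (732) and *Ms4a6d* (741). Near-identical genes can share reads, so windows of 98 bases in the last 500 bases of each transcript were compared across the family. None of the windows of 7 members recurred in another family gene, and 22 of the 1070 windows of *Ms4a4c* (2.06%) did, so reads of *Ms4a4c* carry this small uncertainty.

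The 250 bases before the start of 5 members are shown because these members differed in their pattern across cells, *Ms4a6b* and *Ms4a6c* moving together, *Ms4a7* and *Ms4a4c* each in its own way, and *Ms4a8a* with no class called in both libraries. Sequences are RefSeq promoters on GRCm38.p6, read 5′ to 3′ on the strand of the gene, in which 7 of the 8 members were found and *Ms4a6d* was not. They stand at chr19:11518309-11518558 (+) for *Ms4a6b*, chr19:11469118-11469367 (+) for *Ms4a6c*, chr19:11336147-11336396 (-) for *Ms4a7*, chr19:11407411-11407660 (+) for *Ms4a4c* and chr19:11081104-11081353 (-) for *Ms4a8a*. Capitals mark the letters GAAANNGAA, the core of an interferon-response element, on either strand.
Ms4a6b: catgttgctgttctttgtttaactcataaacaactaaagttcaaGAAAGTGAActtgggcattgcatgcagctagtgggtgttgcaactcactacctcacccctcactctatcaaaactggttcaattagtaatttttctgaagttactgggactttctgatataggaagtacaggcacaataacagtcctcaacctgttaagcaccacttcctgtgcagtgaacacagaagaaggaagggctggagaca
Ms4a6c: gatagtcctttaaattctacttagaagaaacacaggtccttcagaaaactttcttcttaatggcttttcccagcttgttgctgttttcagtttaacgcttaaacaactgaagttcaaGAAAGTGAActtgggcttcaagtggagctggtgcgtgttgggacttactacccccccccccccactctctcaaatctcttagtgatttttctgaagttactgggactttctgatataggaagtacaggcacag
Ms4a7: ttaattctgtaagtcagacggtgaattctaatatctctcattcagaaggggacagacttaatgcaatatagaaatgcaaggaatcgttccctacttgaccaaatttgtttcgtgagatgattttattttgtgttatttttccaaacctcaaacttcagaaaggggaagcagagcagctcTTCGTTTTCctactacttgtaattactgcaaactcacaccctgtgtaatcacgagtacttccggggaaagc
Ms4a4c: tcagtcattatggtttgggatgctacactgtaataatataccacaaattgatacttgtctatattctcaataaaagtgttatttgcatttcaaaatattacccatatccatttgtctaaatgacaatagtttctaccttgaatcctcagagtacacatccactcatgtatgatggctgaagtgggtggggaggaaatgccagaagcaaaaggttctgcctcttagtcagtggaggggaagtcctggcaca
Ms4a8a: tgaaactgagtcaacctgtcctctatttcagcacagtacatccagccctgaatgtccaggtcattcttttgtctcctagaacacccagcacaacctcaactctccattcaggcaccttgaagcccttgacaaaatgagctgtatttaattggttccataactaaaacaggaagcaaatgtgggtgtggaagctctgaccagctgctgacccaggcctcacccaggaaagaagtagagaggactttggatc

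The core stood in the windows of *Ms4a6b* (206 bases before the start) and *Ms4a6c* (133 bases before it) with the same letters, GAAAGTGAA, and in the window of *Ms4a7* on the other strand, 71 bases before the start. A second RefSeq start of *Ms4a7* also had it, and the windows of *Ms4a4a*, *Ms4a4b*, *Ms4a4c* and *Ms4a8a* did not. Of the 32851 promoter windows of 300 bases in the table, 8.56% held the core. The windows of *Ms4a6b* and *Ms4a6c* were 64.0% identical and shared an unbroken run of 48 bases, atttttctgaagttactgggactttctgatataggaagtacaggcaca. Those of *Ms4a4b* and *Ms4a4c* were more alike, at 76.7%, with a longest shared run of 20 bases. All other pairs of windows lay between 50.0% and 57.7%. Both strands of the windows, which run past the start to a length of 300 bases, were also searched for other motifs. The PU.1 core GAGGAA, in 28.3% of all windows, stood in those of *Ms4a7*, *Ms4a4c* and *Ms4a4b*. The AP-1 motif TGANTCA, in 7.81% of all windows, stood in those of *Ms4a8a*, *Ms4a4b* and the second *Ms4a7* start. The box TATAAA, in 13.6%, stood in that of *Ms4a4b*. The C/EBP motif TTGCNNAA, in 10.8%, stood in none of the 7 members. The motifs may overlap, and a match in letters is a description of the sequence alone.

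Sequencing had given 4459 barcodes with 15003119 UMIs for CD and 3163 barcodes with 9164686 UMIs for HFD, and 14 barcodes occurred in both. Cells with 200 to 3500 genes and at most 10% mitochondrial UMIs were kept, which left 2364 CD cells (median depth 4490.5 UMIs) and 2021 HFD cells (median depth 2792). Kept cells with under 1000 genes made up 14.4% of the CD and 40.8% of the HFD cells. At least 1 of 7 macrophage markers was seen in 99.5% of CD and 97.4% of HFD cells. Of the other lists, mast cell markers had 1 UMI in CD and none in HFD, the peritoneal macrophage gene *Gata6* had 6 and 5, and cells with 2 or more markers numbered 0 to 2 for each of the B, T or NK, neutrophil, eosinophil and adipocyte lists, 4 and 0 for stromal cells and 8 and 4 for endothelial cells. Those 8 CD endothelial-marker cells (median 4517 UMIs) held 1 UMI of *Ms4a6b*, 2 of *Ms4a6c* and none of *Ms4a4c*, *Ms4a6d* or *Ms4a7*.

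In all kept cells, 5 of the 8 members were common transcripts and of these *Ms4a7* alone had an interval of HFD over CD that left out no difference. Summed over the family, the CD library had 577 CPM (UMIs of a gene per 1000000 UMIs of the same cells; 563 to 590.1) and the HFD library 547 (531 to 563), a log2 ratio of -0.08 (-0.13 to -0.02). *Ms4a7* stood at 131 CPM (1610 UMIs, interval 125 to 138) in CD and 87.6 CPM (708 UMIs, 81.2 to 94.2) in HFD, a log2 ratio of HFD over CD of -0.58 (-0.71 to -0.45). In these summed UMIs the level of *Ms4a7* was thus lower in HFD, by slightly under 1.5-fold. This fell just short of the 1.5-fold used below to call a difference. The log2 ratio was smaller, at -0.27, as a mean of per-cell CPM and at -0.23 with each cell thinned to 800 UMIs. At that equal depth the intervals of the share of cells with *Ms4a7* overlapped between CD (10.1% to 12.7%) and HFD (8.01% to 10.7%). It was past 1.5-fold in cells with at least 1000 genes (-0.81), in cells with at most 5% mitochondrial UMIs (-0.61), without the top cell of each library (-0.60) and with totals that left out mitochondrial and ribosomal genes (-0.59).

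In the summed UMIs of all kept cells, the 3 *Ms4a6* genes had almost equal levels on both diets. *Ms4a6b* measured 83.5 CPM in CD and 80.4 in HFD (log2 -0.06, -0.20 to 0.09). *Ms4a6c* measured 179.6 and 184 CPM (0.04, -0.06 to 0.13). *Ms4a6d* measured 74.5 and 75.9 CPM (0.03, -0.12 to 0.18). These ratios depended on the setting. Thinned to 800 UMIs, that of *Ms4a6c* was 0.43 (0.22 to 0.64). In cells with at least 1000 genes it was -0.12 (-0.23 to -0.02), and that of *Ms4a6b* was -0.21 (-0.37 to -0.05). *Ms4a8a*, a member described in alternatively activated macrophages, measured 90.8 and 95.1 CPM (0.07, -0.07 to 0.20).

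*Ms4a4c* was rarer, at 15.2 CPM in CD (187 UMIs) and 19.5 CPM in HFD (158 UMIs), with a log2 ratio of 0.36 (0.05 to 0.67). *Ms4a4a* had 14 UMIs in CD and 19 in HFD, or 1.14 and 2.35 CPM (log2 1.04, -0.03 to 2.15). *Ms4a4b* had 8 and 11 UMIs, or 0.651 and 1.36 CPM (1.06, -0.39 to 2.58). Both intervals included no difference. That of *Ms4a4a* left it out narrowly with the cell filter of the study (1.11, 0.041 to 2.22) and with up to 20% mitochondrial UMIs (0.998, 0.018 to 2.002).

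**Figure D1:**
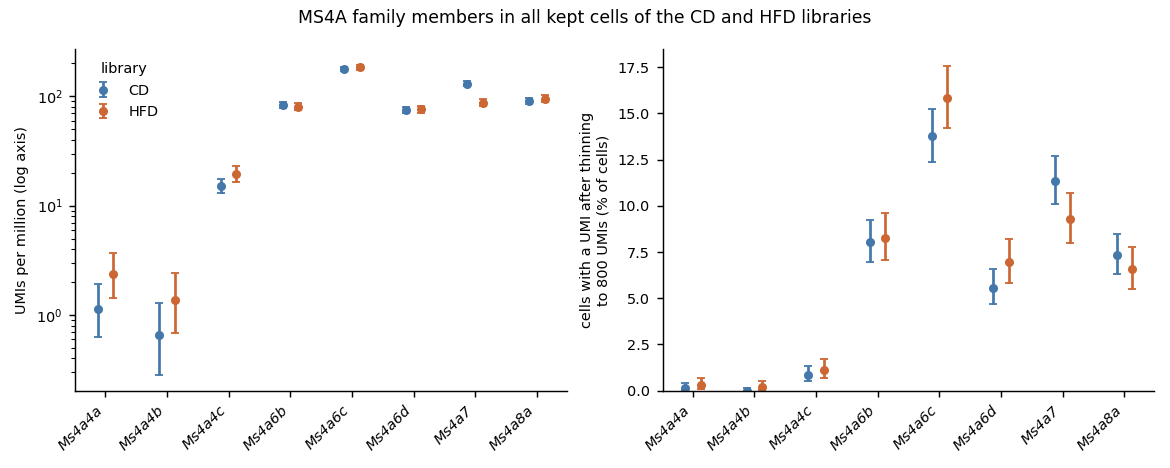
Level of each of the 8 members in CPM (left, log axis, exact Poisson 95% intervals) and share of cells with a UMI after thinning each cell to 800 UMIs (right, exact Clopper-Pearson 95% intervals), in the CD (blue) and HFD (orange) library. The CD and HFD points of *Ms4a7* stand apart on the left (131 and 87.6 CPM), those of the *Ms4a6* genes and *Ms4a8a* lie side by side, and *Ms4a4a* and *Ms4a4b* lie near the floor of the assay.

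Shares of cells were set at equal depth by drawing 800 UMIs from each cell, which left 2334 CD and 1874 HFD cells. *Ms4a6c* was then seen in 13.8% of the cells on CD (12.4 to 15.2) and in 15.8% of those on HFD (14.2 to 17.6). *Ms4a7* was seen in 11.4% (10.1 to 12.7) and 9.28% (8.01 to 10.7). *Ms4a6b*, *Ms4a8a* and *Ms4a6d* lay between 5.57% and 8.27% in both libraries, and *Ms4a4c* at 0.857% and 1.12%. *Ms4a4b* was seen in 0 of 2334 CD cells, which allows a share of up to 0.129% by a floor of 3 counts and 0.158% by the Clopper-Pearson interval, and in 0.213% of HFD cells. At least 1 member was seen in 37.4% of CD and 36.3% of HFD cells. As deposited, with unequal depth, the shares were 45.9% and 33.5% for *Ms4a6c* and 36% and 19.8% for *Ms4a7*, and these include the difference in depth. Among the 8 CD endothelial-marker cells, which should lack both genes, *Ms4a6c* was seen in 1 (12.5%) and *Ms4a7* in none.

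Of the 8708 genes with at least 100 UMIs in the 2 libraries together, 3.8% were at least 1.5-fold higher in HFD than in CD and 7.11% at least 1.5-fold lower. Among the 6 members that passed this minimum (all but *Ms4a4a* and *Ms4a4b*) none was called in either direction, although *Ms4a7* would be called lower under the 4 settings named above for it. The share of all genes called was not taken under those 4 settings. Their median log2 ratio was 0.03, and that of all 8708 genes was -0.01.

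Between classes of cells the family differed far more than between diets. The *Ms4a6* genes and *Ms4a7* were low in Lyz1 high cells and high in Lyve1+ cells in both libraries, the *Ms4a6* genes and *Ms4a4c* were highest in Plac8+ cells, and *Ms4a8a* differed least between classes in CD but was higher in Lyz1 high cells of HFD. A gene was called in a class when it was at least 1.5-fold above or below the other cells of the same library, in the same direction in both libraries, and each class was compared for all genes with at least 100 UMIs except its own marker. Shares over all genes were taken under these rules alone, so counts of members under the alternatives have no such share beside them. The classes overlap and are ranges of counts, not cell types. A cell with more UMIs enters a class more easily, so the median depth of class and other cells is given where it differs most.

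Lyz1 high cells, 23.5% of CD and 33.3% of HFD cells, held 5 of the 6 members at a lower level than other cells, and none at a higher one. Among all genes 15.8% were lower and 4.13% higher in them. *Ms4a7* measured 21.8 CPM in CD Lyz1 high cells and 200.2 CPM in the other CD cells (log2 -3.20, -3.50 to -2.91), and 11.8 and 187 CPM in HFD (-3.99, -4.42 to -3.59). *Ms4a6b* measured 17.9 against 125 CPM in CD (-2.81, -3.15 to -2.49) and 14.4 against 167 in HFD (-3.54, -3.93 to -3.17). *Ms4a6d* (18.7 against 109.8 and 19.6 against 150.1 CPM) and *Ms4a6c* (61.8 against 254 and 52.0 against 359 CPM) followed the same course. *Ms4a4c* was lower by 1.08 on the log2 scale in CD and by 3.76 in HFD. *Ms4a8a* was the exception, with 100.2 against 84.9 CPM in CD (0.24, 0.06 to 0.41) and 117 against 66.5 in HFD (0.81, 0.59 to 1.04). The median over the 6 members was -2.30 in CD and -3.24 in HFD, and over all genes -0.18 and -0.22. Lyz1 high cells were deeper than other cells, with medians of 8205 and 3707 UMIs in CD and 6609 and 1839 in HFD, and the part of depth in these ratios was not tested beyond the alternatives given at the end.

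Lyve1+ cells made up 49.6% of CD and 20.5% of HFD cells. *Ms4a6b*, *Ms4a6c*, *Ms4a6d* and *Ms4a7* were higher and *Ms4a4c* lower in them in both libraries, and among all genes 7.78% were higher and 3.78% lower. *Ms4a7* measured 193 CPM in the Lyve1+ cells of both libraries, against 83.2 CPM in other CD cells (1.21, 1.06 to 1.36) and 65.9 CPM in other HFD cells (1.55, 1.33 to 1.77). *Ms4a6b* stood at 122 against 53.8 CPM in CD (1.18, 0.99 to 1.37) and 161 against 63.8 CPM in HFD (1.34, 1.10 to 1.57). *Ms4a6d* was higher by 1.18 and 0.95 and *Ms4a6c* by 0.65 and 0.97 on the log2 scale. *Ms4a4c* was rare there, at 4.84 CPM against 23.3 in CD and 5.81 against 22.4 in HFD, the HFD value resting on 8 UMIs in 2 cells. When classes were called on cells thinned to 800 UMIs, 1 member and not 4 was called higher in Lyve1+ cells, and with at least 2 UMIs of *Lyve1* none was called lower.

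In Timd4+ cells (15.6% of CD cells and 3.56%, or 72 cells, of HFD) only *Ms4a7* was called, as higher. It measured 222 CPM against 117 in other CD cells (0.93, 0.76 to 1.10) and 214 against 83.0 CPM in HFD (1.37, 0.96 to 1.75). Among all genes 4.88% were higher and 3.45% lower. *Ms4a6b* was 0.76 higher in CD (0.54 to 0.98) and 0.33 in HFD, with an interval from -0.28 to 0.87 that includes no difference. With at least 2 UMIs of *Timd4* the HFD ratio of *Ms4a7* was -0.15 and no member was called higher. Of the CD Timd4+ cells 77.7% were also Lyve1+, and of the HFD ones 38.9%.

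Folr2+Lyve1- cells had none of the 6 members called, where 0.207% of all genes were higher and 0.218% lower. The direction of the ratios differed between the libraries. *Ms4a6d* measured 56.2 CPM against 86.9 in the other CD cells (log2 -0.63, -0.84 to -0.43), and 112 against 62.7 CPM in HFD (0.83, 0.59 to 1.07). *Ms4a6b* (-0.62 and 0.41), *Ms4a7* (-0.47 and 0.56) and *Ms4a6c* (-0.22 and 0.32) did likewise. Lyve1+ cells, which count among the other cells here, numbered 1172 in CD and 415 in HFD. The CD direction depended on the setting, since with cells thinned to 800 UMIs the CD ratios were 0.42 for *Ms4a6d*, 0.91 for *Ms4a6b*, 0.87 for *Ms4a7* and 0.60 for *Ms4a6c*, and 3 members were then called higher. The share of all genes called on thinned cells was not taken, so this count has nothing to be set against.

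Ccr2+ cells, 56.1% of CD and 56.0% of HFD cells, had *Ms4a6b*, *Ms4a6d* and *Ms4a7* lower and *Ms4a4c* higher, where 12.8% of all genes were lower and 4.75% higher. *Ms4a7* measured 78.2 against 259 CPM in CD (-1.73, -1.87 to -1.58) and 40.8 against 239 CPM in HFD (-2.55, -2.78 to -2.32). *Ms4a4c* measured 19.4 against 5.01 CPM in CD (1.95, 1.25 to 2.74) and 24.6 against 3.14 CPM in HFD (2.97, 1.81 to 4.44). Lyz1 high cells made up 40.0% of the CD and 53.3% of the HFD Ccr2+ cells. The call of *Ms4a4c* ended with cells thinned to 800 UMIs. Ccr2+ cells were deeper than other cells, with medians of 5928.5 and 3130.5 UMIs in CD and 4965 and 1545.5 in HFD.

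Plac8+ cells were few, 42 in CD (1.78%) and 73 in HFD (3.61%), and held the highest levels of the *Ms4a6* genes. *Ms4a4c*, *Ms4a6b*, *Ms4a6c* and *Ms4a6d* were called higher and none lower, where 3.85% of all genes were higher and 8.6% lower. *Ms4a4c* measured 359 CPM (98 UMIs) against 7.41 CPM in other CD cells (5.60, 5.17 to 6.03) and 213 CPM (84 UMIs) against 9.62 in HFD (4.47, 3.997 to 4.94). *Ms4a6c* measured 589.5 against 170.3 CPM in CD (1.79, 1.55 to 2.02) and 582 against 164 in HFD (1.83, 1.62 to 2.03). *Ms4a6b* reached 198 CPM in CD and 233 in HFD, and *Ms4a6d* 223 and 195. *Ms4a7* did not follow them, with 76.9 CPM in CD (-0.78 against other cells) and 104 in HFD (0.26, -0.23 to 0.71). Among Plac8+ cells with no other class marker 2 members were called higher.

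Trem2+ cells (27.0% of CD and 8.31% of HFD cells) had *Ms4a6b*, *Ms4a6c*, *Ms4a6d* and *Ms4a7* called higher, where 1.27% of all genes were higher and 2.16% lower. *Ms4a7* measured 195 against 104 CPM in CD (0.90, 0.75 to 1.04) and 173 against 76.5 in HFD (1.18, 0.91 to 1.43). *Ms4a6d* was higher by 0.71 in CD and 1.10 in HFD, *Ms4a6b* by 0.59 and 1.02 and *Ms4a6c* by 0.64 and 0.77. Of the CD Trem2+ cells 60.5% were Lyve1+ as well, and of the HFD ones 19%. These 4 calls ended, leaving 0, when levels were means of per-cell CPM, when cells were thinned to 800 UMIs, and among Trem2+ cells with no other marker, and 2 were left without cells that carried a marker of another cell type.

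**Figure D2:**
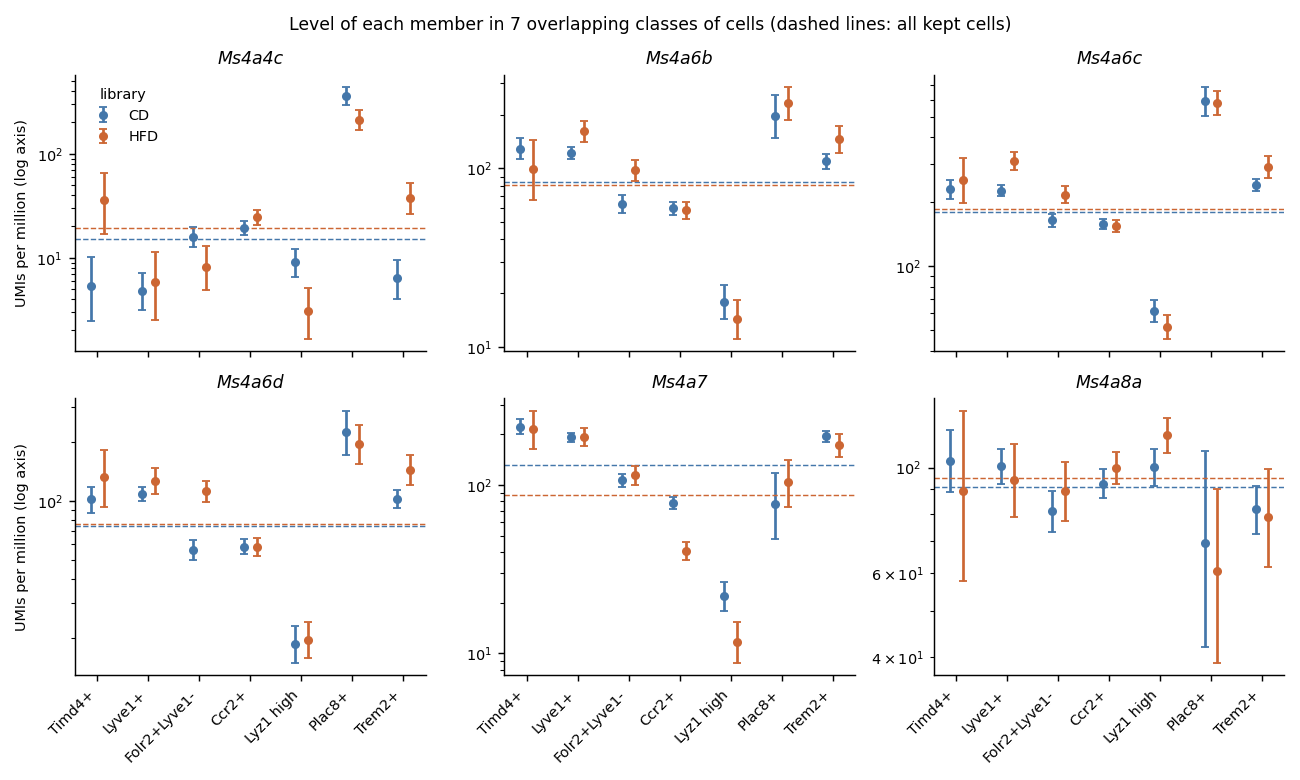
Level of the 6 members with at least 100 UMIs (CPM, log axis, exact Poisson 95% intervals) in 7 overlapping classes of cells of the CD (blue) and HFD (orange) library, with dashed lines at the level in all kept cells. The *Ms4a6* genes and *Ms4a7* dip in Lyz1 high cells, *Ms4a4c* (359 and 213 CPM) and the *Ms4a6* genes peak in Plac8+ cells, and *Ms4a8a* spans the narrowest range of the 6 (60.7 to 117 CPM in HFD; each panel has its own axis).

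In the order of levels, Plac8+ cells stood first for *Ms4a4c*, *Ms4a6b* and *Ms4a6c* in both libraries and their intervals lay above those of the class that came next. For *Ms4a6d* this held in CD, while in HFD the intervals of Plac8+ (195 CPM, 154 to 243) and Trem2+ cells (144 CPM, 120.3 to 170.3) overlapped. *Ms4a7* was highest in Timd4+ cells of both libraries, with Trem2+ cells next in CD and Lyve1+ cells next in HFD. The intervals of these neighbours overlapped, and no ratio between them was taken because the classes share cells. Lyz1 high cells were last for *Ms4a6b*, *Ms4a6c*, *Ms4a6d* and *Ms4a7* in both libraries. The lowest and highest class levels of *Ms4a8a* were 69.6 and 103 CPM in CD and 60.7 and 117 CPM in HFD.

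Within the classes, HFD and CD differed by member, as counts of 2 libraries and with no test. *Ms4a7* was at 193 CPM in the Lyve1+ cells of both diets (log2 0.00, -0.20 to 0.20), and its ratio was 0.10 in Folr2+Lyve1- cells (-0.12 to 0.32) and -0.05 in Timd4+ cells (-0.47 to 0.34). It was lower in HFD in Ccr2+ cells, at 78.2 CPM in CD and 40.8 in HFD (-0.94, -1.15 to -0.73), and in Lyz1 high cells, at 21.8 and 11.8 CPM (-0.89, -1.40 to -0.41). Among Ccr2+ cells with no marker of another class the direction turned, with a log2 ratio of 1.66 (0.62 to 2.87).

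The *Ms4a6* genes, level in the summed UMIs of all cells, had higher levels in HFD within some of the classes. Folr2+Lyve1- cells had median depths of 4995 UMIs in CD and 2522 in HFD, Lyve1+ cells 4052.5 and 2299, and Trem2+ cells 4988.5 and 5190. A shallow cell more easily lacks a UMI of *Lyve1*, and the part of depth in these ratios was not tested beyond the alternatives given. In Folr2+Lyve1- cells *Ms4a6d* measured 56.2 CPM in CD and 112 in HFD (0.99, 0.74 to 1.24), *Ms4a6b* 63.4 and 97.9 (0.63, 0.37 to 0.88) and *Ms4a6c* 164 and 216 (0.40, 0.23 to 0.57). In Lyve1+ cells *Ms4a6c* measured 225 and 311 CPM (0.46, 0.30 to 0.62) and *Ms4a6b* 122 and 161 (0.40, 0.18 to 0.63), and the interval of *Ms4a6d* (0.22, -0.03 to 0.47) included no difference. In Trem2+ cells the log2 ratios were 0.41 for *Ms4a6b*, 0.28 for *Ms4a6c* and 0.49 for *Ms4a6d*, with intervals above no difference. In Timd4+ cells they were -0.37 (-0.99 to 0.20), 0.15 (-0.24 to 0.52) and 0.38 (-0.18 to 0.90), and each interval included no difference. In Ccr2+ cells all 3 stood between -0.04 and 0.00, with intervals within 0.24 of no difference. Among Ccr2+ cells with no marker of another class the ratios were 1.31 for *Ms4a6b*, 0.48 for *Ms4a6c* and 1.13 for *Ms4a6d*. Thinned to 800 UMIs, *Ms4a6b* in Folr2+Lyve1- cells had a ratio of 0.10 (-0.41 to 0.59), and *Ms4a6c* one of 0.88 (0.54 to 1.22).

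The ratio of *Ms4a4c* had opposite signs in different classes. *Ms4a4c* was higher in HFD in Trem2+ cells, with a log2 ratio of 2.57 (1.77 to 3.40). It had 23 UMIs in 16 of the 638 CD cells (6.35 CPM) and 35 UMIs in 15 of the 168 HFD cells (37.8 CPM). In Timd4+ cells it had 9 UMIs in CD and 10 in HFD (2.74, 1.28 to 4.21), but the HFD UMIs came from 3 cells, and without the top cell of each library the ratio was 1.42 (-1.16 to 3.56). It was lower in HFD in Lyz1 high cells (9.03 and 3.05 CPM, -1.57, -2.55 to -0.67), Folr2+Lyve1- cells (15.9 and 8.24 CPM, -0.95, -1.78 to -0.20) and Plac8+ cells (359 and 213 CPM, -0.76, -1.19 to -0.32). With cells thinned to 800 UMIs the ratios of Folr2+Lyve1- and Plac8+ cells shrank to -0.086 and -0.12, and both intervals included no difference. Plac8+ cells held 52.4% of the *Ms4a4c* UMIs in CD and 53.2% in HFD. They were 1.72% of CD and 7.74% of HFD Trem2+ cells, and 0.27% and 2.78% of Timd4+ cells. Among Lyz1 high cells they were 1.98% and 2.83%, and among Folr2+Lyve1- cells 1.95% and 2.93%. The part of this overlap in the ratios was not tested. *Ms4a8a* kept within 0.22 of no difference in every class, and its interval left out no difference only in Lyz1 high cells (100.2 and 117 CPM, 0.22, 0.04 to 0.40), a ratio that was -0.22 after thinning to 800 UMIs.

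**Figure D3:**
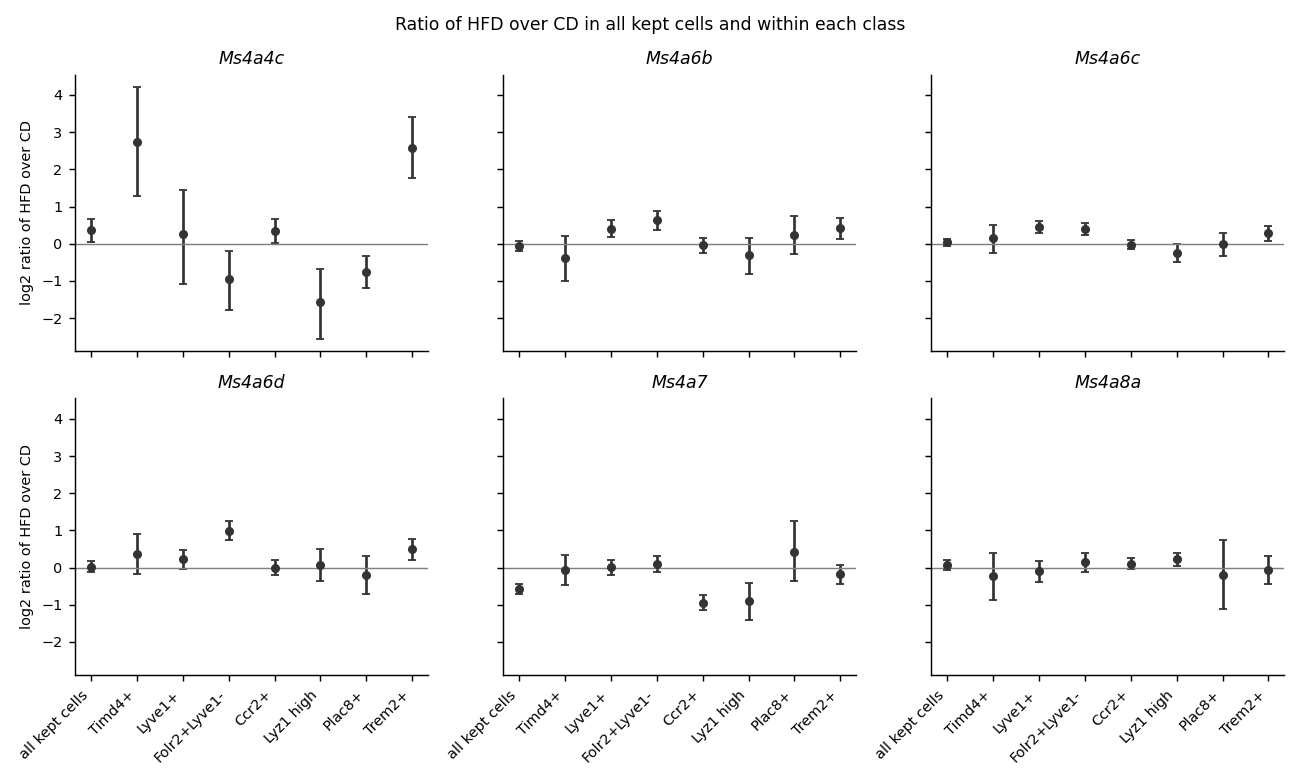
Log2 ratio of HFD over CD of the 6 members with at least 100 UMIs, in all kept cells and within each class (points, with exact 95% intervals for counting error; grey line, no difference). *Ms4a7* lies below the line in all cells, Ccr2+ and Lyz1 high cells, the *Ms4a6* genes lie above it in Folr2+Lyve1- cells, and *Ms4a4c* lies on both sides.

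The classes share cells, so the cells were also split into 4 groups that do not overlap, by a UMI of *Folr2* or *Lyve1* and by 10 or more UMIs of *Lyz1*. This split was chosen after the values by class had been seen. Cells with *Folr2* or *Lyve1* and less *Lyz1* gave 55.8% of the UMIs in CD and 25.9% in HFD, and cells with neither gene and high *Lyz1* gave 10.4% and 38.7%. In the first group *Ms4a7* was at 214 CPM in CD and 231 CPM in HFD (log2 0.11, -0.04 to 0.26). *Ms4a6b* measured 131 and 192 CPM (0.55, 0.38 to 0.72), *Ms4a6c* 257 and 363 (0.50, 0.37 to 0.62) and *Ms4a6d* 115 and 178 (0.64, 0.46 to 0.82). Thinned to 800 UMIs, the ratio of *Ms4a6b* was 0.28, with an interval that included no difference (-0.12 to 0.68). That of *Ms4a6c* was then 0.86 (0.59 to 1.14). *Ms4a8a* was lower in HFD in this group, at 87.1 and 67.7 CPM (-0.36, -0.64 to -0.10). *Ms4a4a* was higher in it, with 11 UMIs in CD and 16 in HFD (1.61 and 7.63 CPM, 2.25, 1.05 to 3.50). Thinned to 800 UMIs, the interval of *Ms4a4a* included no difference (1.35, -1.55 to 4.25). In cells with *Folr2* or *Lyve1* and high *Lyz1*, *Ms4a8a* was higher in HFD, at 99.5 and 125 CPM (0.33, 0.06 to 0.59).

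In cells with neither gene and less *Lyz1* (157 in CD and 543 in HFD) *Ms4a7* measured 55.1 CPM in CD and 121 in HFD (1.14, 0.62 to 1.69) and *Ms4a6b* 64.0 and 131 CPM (1.03, 0.54 to 1.54). Cells with no class mark, which all fall in this group, numbered 35 in CD (median 1223 UMIs) and 262 in HFD (median 1003). In them *Ms4a7* measured 101 CPM in CD and 192 in HFD. Shallow cells enter this group more easily. Over the alternatives its ratio of *Ms4a7* ran from 0.46 to 1.29, and the part of depth was not tested further. In cells with neither gene and high *Lyz1* the levels of *Ms4a7* were 7.07 and 7.35 CPM (0.06, -1.11 to 1.35). In cells with *Folr2* or *Lyve1* and high *Lyz1*, *Ms4a7* measured 27.2 CPM in CD and 21.1 in HFD (-0.37, -0.9995 to 0.23). This was the only one of the 4 groups with a lower level in HFD, and its interval included no difference. In none of the 4 groups was the interval of *Ms4a7* wholly below no difference. With the HFD levels of the 4 groups weighted by the CD shares of UMIs, *Ms4a7* came to 142 CPM against 131 in CD (log2 0.12), and *Ms4a6b*, *Ms4a6c* and *Ms4a6d* to ratios of 0.54, 0.49 and 0.63. In pooled libraries a different mix of cells and a different level per cell cannot be fully told apart by such groups.

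**Figure D4:**
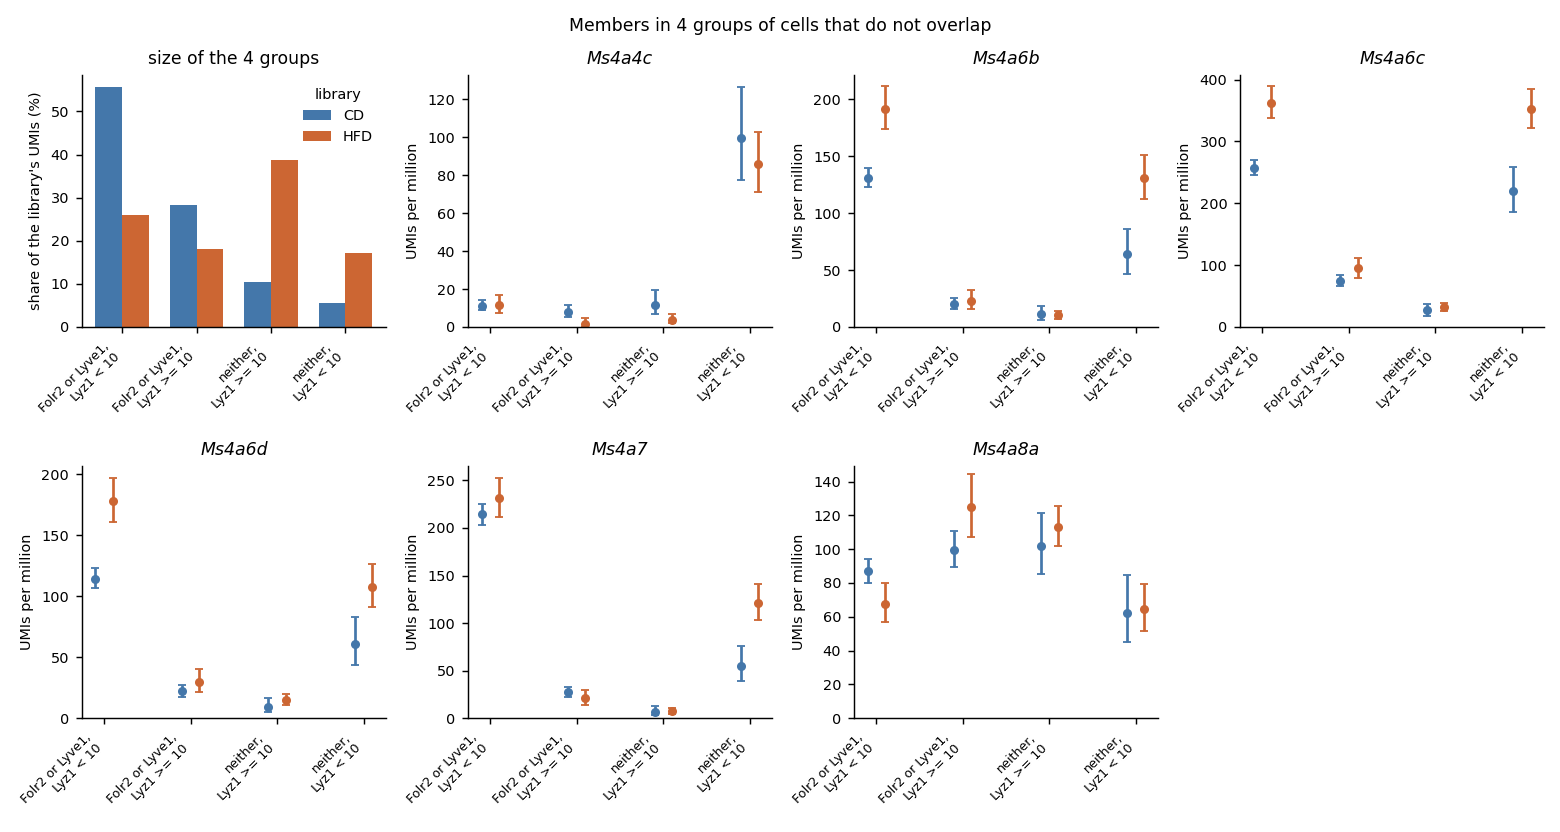
Share of each library's UMIs in 4 groups of cells that do not overlap (bars, first panel) and level of 6 members in them (points, CPM, exact Poisson 95% intervals; CD blue, HFD orange; Lyz1 in UMIs per cell). The group with *Folr2* or *Lyve1* and less *Lyz1* holds 55.8% of the CD and 25.9% of the HFD UMIs, and in it *Ms4a7* (214 and 231 CPM) differs less than *Ms4a6b* (131 and 192 CPM).

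UMIs of *Ms4a4c* lay in few cells. The 10 cells with most of them held 57.8% of its UMIs in CD and 54.4% in HFD, and the top cell had 33 and 23 UMIs. For the 5 more common members the 10 top cells held between 4.39% and 12.9%. Plac8+ cells held 52.4% of the *Ms4a4c* UMIs in CD and 53.2% in HFD, although only 14 of the 42 CD and 16 of the 73 HFD Plac8+ cells had any. *Ms4a4c* was also high in the 198 CD and 126 HFD cells with 2 or more markers of patrolling monocytes (64.4 CPM against 8.67, and 106 against 10.1) and in the 43 CD and 25 HFD cells with 2 or more dendritic cell markers (95.9 CPM against 13.1, and 160 against 15.9). These sets share cells. The patrolling marker *Nr4a1* had a UMI in 78.5% of all CD and 76.6% of all HFD cells, so it set few cells apart. Of the dendritic markers, *Cd209a* had one in 29.9% and 11.3%. In the 929 CD and 911 HFD cells with 2 or more monocyte markers, *Ms4a4c* was higher by 1.11 and 1.04 on the log2 scale. Unlike in Plac8+ cells, *Ms4a6b* (-1.83 and -2.02), *Ms4a6c* (-0.996 and -1.51) and *Ms4a6d* (-1.37 and -1.86) were lower there. Of the monocyte markers, *Ccr2* had a UMI in 56.1% of all CD and 56.0% of all HFD cells, and *Fn1* in 50.3% and 57.9%. *Ly6c2*, *Chil3*, *Vcan* and *Plac8* each had one in at most 3.61% of the cells of a library. Most of this set thus rested on *Ccr2* and *Fn1*, and it is not a set of monocytes alone. *Ms4a7* measured 32.0 CPM in the same dendritic-marker cells of CD, against 134 in the others, and 62.9 CPM against 88.2 in HFD, where the interval of the ratio included no difference.

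**Figure D5:**
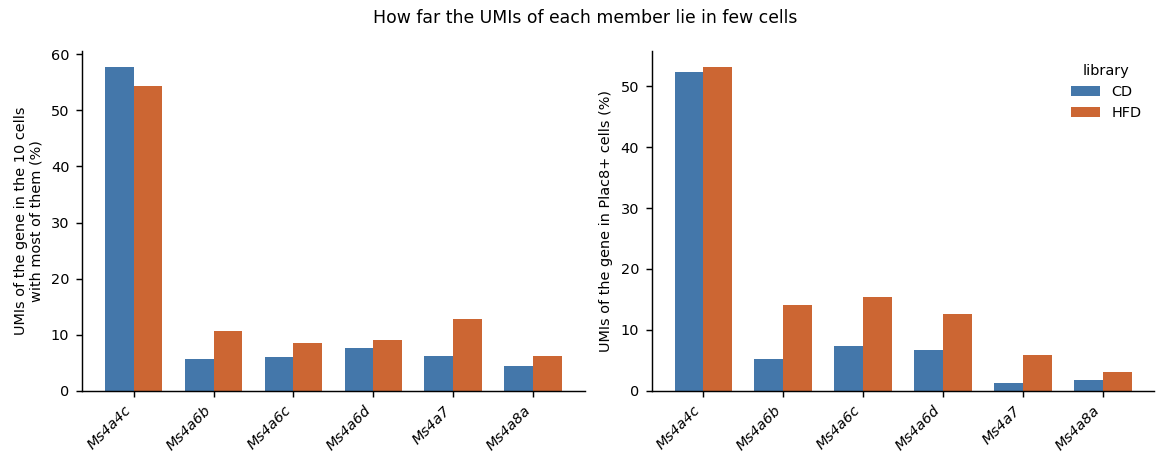
Share of the UMIs of each of 6 members that lay in the 10 cells with most of them (left) and in Plac8+ cells (right), in the CD (blue) and HFD (orange) library. Bars of *Ms4a4c* exceed 50% in both panels (57.8% and 54.4%, 52.4% and 53.2%), and the next highest bar is *Ms4a6c* in HFD Plac8+ cells (15.4%).

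Members of the *Ms4a6* group met in the same cells. In cells thinned to 800 UMIs, *Ms4a6b* and *Ms4a6c* were seen together in 40 CD cells, where their separate shares would give 25.9, and in 54 HFD cells, where they would give 24.6. *Ms4a6c* and *Ms4a6d* met in 29 CD cells (17.9 from their shares) and 49 HFD cells (20.6), and *Ms4a6c* and *Ms4a7* in 51 (36.4) and 49 (27.6). *Ms4a8a* and *Ms4a6c* met in 15 CD cells (23.5 from their shares) and 15 HFD cells (19.5). Cells of 1 library share its mix of cell types, so these counts are descriptions.

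Over the 14 levels (7 classes in 2 libraries), the genes most like a member were sought among the 6385 genes with at least 100 UMIs in each library, by Pearson's r of log2(CPM + 1). For *Ms4a6b* and *Ms4a6c* the 2 closest genes were the other *Ms4a6* genes (r 0.974 to 0.980), followed by *Slfn5* (0.953), an interferon-inducible gene, and *Fcgr1* (0.973), the high-affinity Fc receptor for IgG. *Ms4a6d* was closest to *Slfn5* (0.983), then to *Ms4a6b* and *Ms4a6c*. *Ms4a7* was closest to *Ifi207* (0.983), *Cyp27a1* (0.980), which makes 27-hydroxycholesterol, and *Ier3* (0.974), *Ms4a8a* to *Ryk* (0.924), *Agtpbp1* (0.874) and *Tmem170b* (0.871), and *Ms4a4c* to *Tor3a* (0.918), *Cd47* (0.917) and *Trappc2* (0.914). The 14 points share cells and libraries, so these values are descriptions.

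Of the 11 other *Ms4a* genes, 9 had no UMI in any kept cell, among them *Ms4a1* of B cells and *Ms4a2* and *Ms4a3* of mast cells and granulocyte precursors. *Ms4a14* had 56 UMIs in CD and 23 in HFD (log2 -0.68, -1.45 to 0.04), and in CD it was higher in Lyve1+ cells (7.26 CPM against 2.46), while in HFD it had 3 UMIs there (2.18 CPM against 2.98). *Ms4a4d* had 4 UMIs in CD and 0 in HFD. The related genes *Tmem176a* and *Tmem176b*, which code for intracellular 4-segment proteins, were more abundant and lower in HFD, at 475 and 276 CPM (-0.78, -0.85 to -0.71) and 778 and 508 CPM (-0.62, -0.67 to -0.56). Unlike *Ms4a7* they were also lower in HFD Lyve1+ cells, *Tmem176b* at 818 CPM in CD and 505 CPM in HFD.

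Genes of receptors tied to the family above, and of signalling adaptors, were read out as well. *Clec7a*, the gene of dectin-1, was not found under that symbol among the deposited genes and was not read out. *Trem2*, the receptor whose soluble form is tied to the human cluster, measured 84.3 CPM in CD and 41.3 CPM in HFD (log2 -1.03, -1.21 to -0.85). The signalling adaptors *Tyrobp* (2026 and 2323 CPM, 0.20), *Fcer1g* (2599 and 2071 CPM, -0.33) and *Hcst* (102 and 112 CPM, 0.14) stayed within 1.5-fold. *Tnfrsf18*, which codes for GITR, had 53 UMIs in CD and 78 in HFD (4.31 and 9.65 CPM, 1.16, 0.64 to 1.69).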

How the data were processed

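scRNA-seq libraries (10x 3′ V2) were processed by the authors with Cell Ranger 3.0.2 on mm10 (Ensembl release 93, per the labels), and the authors deposited 1 table of raw UMI counts per library. Cells with 200 to 3500 genes and at most 10% mitochondrial UMIs were kept. Counts were summed over cells and given as CPM with exact Poisson 95% intervals, ratios with exact conditional binomial intervals and shares with Clopper-Pearson intervals, which cover counting error only. Shares were taken after thinning each cell to 800 UMIs. With 1 library per diet no test was possible, and a gene with at least 100 UMIs was called past 1.5-fold. Scrublet's own threshold called 0 CD and 2 HFD doublets. No cell was removed as a doublet for the values reported, and an alternative left out the barcodes with the highest scores (112 CD and 62 HFD kept cells). Genes named were the 8 members, other *Ms4a* genes, *Tmem176a* and *Tmem176b*, the listed receptor and adaptor genes, marker genes of cells, and the 3 genes most like each member. The members and lists were chosen with earlier results of these data known. On counts simulated with the Poisson error that the intervals assume, 95.9% of intervals for HFD over CD in all cells held the true ratio over 8708 genes. The simulated counts had no clumping of UMIs in single cells, so coverage for genes such as *Ms4a4c* was not tested. Alternatives changed cell filters, depth, totals, class rules and single cells. Python 3.11.15, numpy 2.4.6, scipy 1.17.1, pandas 2.3.3, scanpy 1.11.5, Biopython 1.88 and matplotlib 3.10.9 were used.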

Additional observations from a re-analysis of the deposited data

Results flagged for a closer look

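The ratio of HFD over CD of *Ms4a4c* had opposite signs in different classes of cells, and the difference between classes was not tested. On the log2 scale it was 2.74 in Timd4+, 2.57 in Trem2+ and 0.34 in Ccr2+ cells, and -1.57 in Lyz1 high, -0.95 in Folr2+Lyve1- and -0.76 in Plac8+ cells. Without the cell with most *Ms4a4c* UMIs in each class and library the values were 1.42, 2.56, 0.42, -1.42, -0.84 and -0.64 in the same order, and the interval of the first (-1.16 to 3.56) included no difference. Plac8+ cells, which were rich in *Ms4a4c*, made up a larger share of the HFD than of the CD cells in each other class named here. In Trem2+ cells their share was 1.72% in CD and 7.74% in HFD. The part of this overlap in the ratios was not tested.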

How the results depend on the processing

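No paired analysis was possible because each diet had 1 library. The cause of the changes below was not tested. Values are log2 ratios unless counts of members are named. For HFD over CD in all cells, weighting at CD shares of UMIs gave -0.36 (*Ms4a4c*), 0.54 (*Ms4a6b*), 0.49 (*Ms4a6c*), 0.63 (*Ms4a6d*) and 0.12 (*Ms4a7*). Cells with at least 1000 genes gave -0.21 (*Ms4a6b*), -0.12 (*Ms4a6c*) and -0.81 (*Ms4a7*). Means of per-cell CPM gave 0.22 (*Ms4a6b*), 0.34 (*Ms4a6c*), 0.19 (*Ms4a6d*), -0.27 (*Ms4a7*) and -0.14 (*Ms4a8a*). Thinning to 800 UMIs gave 0.43 (*Ms4a6c*), 0.36 (*Ms4a6d*), -0.23 (*Ms4a7*) and -0.24 (*Ms4a8a*).

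Turned signs are listed for ratios whose reported interval left out no difference. Within classes the sign of HFD over CD turned on thinning for *Ms4a4c* in Ccr2+ cells (-0.029) and *Ms4a8a* in Lyz1 high cells (-0.22), with no other class marker for *Ms4a7* in Ccr2+ (1.66) and *Ms4a8a* in Lyz1 high cells (-0.015), and with 2 marker UMIs for *Ms4a6c* in Trem2+ cells (-0.084).

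Against other cells the sign turned in CD Folr2+Lyve1- cells with 2 marker UMIs for *Ms4a6c* (0.090) and *Ms4a7* (0.054), with no other marker for *Ms4a6b* (0.45), *Ms4a6c* (0.44), *Ms4a6d* (0.046) and *Ms4a7* (0.90), and on thinning for *Ms4a6b* (0.91), *Ms4a6c* (0.60), *Ms4a6d* (0.42), *Ms4a7* (0.87) and *Ms4a8a* (0.18). With no other marker it turned in CD Trem2+ cells for *Ms4a6b* (-1.64), *Ms4a6c* (-2.73) and *Ms4a6d* (-0.44), in CD Plac8+ cells for *Ms4a7* (1.06) and in HFD Ccr2+ cells for *Ms4a8a* (-0.18). On thinning it turned in HFD Trem2+ cells for *Ms4a6d* (-0.10) and CD Lyve1+ cells for *Ms4a8a* (-0.18), and with 2 marker UMIs in HFD Timd4+ cells for *Ms4a6c* (-0.35), *Ms4a6d* (-0.95) and *Ms4a7* (-0.15).

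Of the 6 members, those higher in Timd4+ cells (1) numbered 0 with 2 marker UMIs, 2 at up to 5% mitochondrial UMIs and 2 without high doublet scores, and those lower (0) numbered 1 with 2 marker UMIs, 3 with no other marker and 1 on thinning. The share of all genes called was not taken under any of these alternatives, so the counts in this paragraph describe the members alone. In Lyve1+ cells 1 was higher on thinning (4) and 0 lower with 2 marker UMIs (1). In Folr2+Lyve1- cells (0 and 0) 1 was higher and 1 lower with no other marker, and 3 higher and 1 lower on thinning. On thinning 0 were higher in Ccr2+ (1) and 1 in Lyz1 high cells (0). Over all alternatives the members lower ran from 2 to 4 in Ccr2+ (3) and from 4 to 5 in Lyz1 high cells (5). Other counts that moved by no more than 1.5-fold are not listed. In Plac8+ cells 2 were higher (4) and 1 lower (0) with no other marker, and 1 lower on thinning. In Trem2+ cells (4 higher, 0 lower) 0 were higher with per-cell CPM, with no other marker and on thinning, 2 without cells of other types, and 1 lower with no other marker and on thinning.

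Of 87 comparisons of all kept cells, 70 stayed within counting error of the value reported, and of 584 within a class, 512 did. Of 1120 for a class against other cells, 943 did. Counted only for ratios whose reported interval left out no difference, the sign turned in 2, 5 and 21 of them, in the same order. Turns of other ratios were left out of this count. These numbers include *Ms4a4a* and *Ms4a4b*, whose wide intervals are hard to leave. Depth limits *Ms4a4a* and *Ms4a4b*, with at most 19 UMIs in a library.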
